A study of Mus musculus with 3 samples.

Results

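Scarb1 and 7 other genes for lipoprotein, scavenger and sorting receptors (Scarb2, Cd36, Lrp1, Lrp5, Lrp6, Vldlr and Sort1) were examined for RBFOX2 cross-linking in primary mouse hepatocytes. A cluster was assigned to a gene when it lay on the gene's strand with its midpoint inside the gene's span in the GENCODE M21 annotation of GRCm38. The 8 genes held 67 of the 87021 clusters in the list, 0.0770% of them, with 1360 of its 2850863 counts. RBFOX2 eiCLIP was performed on hepatocytes from livers of C57BL6/J mice, irradiated with ultraviolet light at 150 mJ/cm2 and immunoprecipitated with an antibody to RBFOX2 (RBM9). There were 3 libraries of 1 group, with no treated group, no knockout and no input library among the samples. The labels give 3 livers and 3 pellets for each sample, without saying which animals were pooled, and the study's methods give a different number of mice for each culture, so the animals behind a library are uncertain. The libraries were merged before clusters were called, so a cluster carries 1 count over all 3 libraries and no spread between replicates can be given. Every interval below is an exact Poisson interval for a number of clusters, a Wilson interval for a share or an exact interval for a ratio of cluster densities. All are at the 95% level and cover counting error only.

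RBFOX2 is an RNA-binding splicing factor that recognises GCAUG, in many sites preceded by U, mostly in introns beside alternative exons and also in 3′ UTRs. SR-BI, encoded by Scarb1, is the hepatocyte receptor for high-density lipoprotein and takes up cholesteryl ester from it without degrading the particle. Its cytoplasmic tail binds the PDZ-domain adaptor PDZK1, which keeps the receptor at the cell surface. Alternative splicing of Scarb1 replaces that tail, giving the isoform known as SR-BII. The other genes encode relatives of SR-BI (Scarb2, which carries glucocerebrosidase to the lysosome, and Cd36, the fatty acid transporter), members of the low-density lipoprotein receptor family (Lrp1, the receptor for remnants and many proteases; Lrp5 and Lrp6, coreceptors for Wnt; Vldlr, the receptor for very-low-density lipoprotein) and sortilin (Sort1), which sorts apolipoprotein B and other cargo between the Golgi and lysosomes.

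The alternative exon of Scarb1 is exon 12 of the reference transcript, the coding transcript with the longest reading frame, at chr5:125281105-125281233 on the minus strand of GRCm38. It is 129 nt long, is coding throughout and ends with the stop codon, so that exon 13 is 3′ UTR. In a shorter coding transcript exon 11 is joined directly to the last exon, whose first 120 nt then become coding (chr5:125277746-125277865). The 2 ends of the reading frame are shown because the choice between them decides the receptor's tail, with the stop codons in capitals:
Scarb1 exon 12: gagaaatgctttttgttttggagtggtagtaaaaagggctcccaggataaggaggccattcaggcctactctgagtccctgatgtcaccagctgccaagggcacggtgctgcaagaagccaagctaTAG
Scarb1 last exon, coding part when exon 12 is skipped: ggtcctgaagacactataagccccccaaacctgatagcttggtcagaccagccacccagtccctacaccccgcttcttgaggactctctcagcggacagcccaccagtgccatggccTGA
The first ends the protein after 42 codons beyond exon 11 and the second after 39, in reading frames of 509 and 506 codons. GCATG occurs 0 times in either stretch.

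Scarb1 (chr5:125277087-125341094, minus strand, 64.0 kb) held 3 clusters, all intronic, with counts of 25, 19 and 18. All 3 were at or above 17, the median count of all clusters in the list, and none reached 39, the count at which the highest 10.2% of all clusters begin. One of the 3 lay in intron 11, directly upstream of exon 12. That cluster covered 69 nt (chr5:125282300-125282368) and had a count of 19, higher than 57.0% of all clusters. Its nearest edge was 1067 nt from the 3′ splice site of exon 12 and its 5′ edge 1531 nt from exon 11, within an intron of 2665 nt. No cluster was listed in exon 12 itself, in the 3239 nt of intron 12 or in exon 13.

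**Figure D1:**
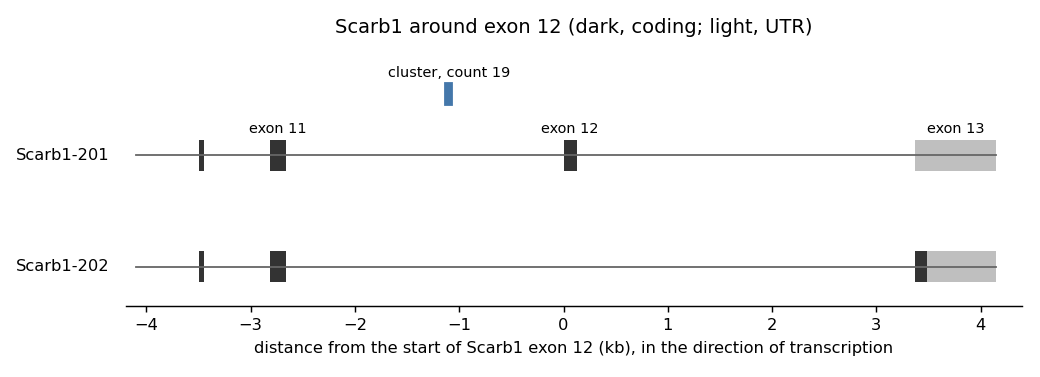
The 2 tails of Scarb1 drawn to scale as distance in kb from the start of exon 12, for the transcript that includes it (top) and one that skips it (bottom) (dark boxes, coding sequence; light boxes, UTR), with the cluster of intron 11 above them. The cluster lies about midway along intron 11, its nearest edge 1067 nt before exon 12, and nothing is listed downstream of it.

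The other 2 Scarb1 clusters were in intron 1, which at 36404 nt makes up 56.9% of the gene. The cluster with the count of 25 (chr5:125310414-125310532, 119 nt wide) lay 6062 nt before exon 2, and that with the count of 18 (chr5:125323072-125323256, 185 nt wide) lay 18720 nt before it. They were therefore 29.2 kb and 41.8 kb from exon 12, and neither touched an exon of any annotated coding transcript. The bases under the 3 clusters are in no exon of an annotated transcript, so they could not be read and were not analysed here. Of intron 11, 949 nt next to exon 11 are known through transcripts that retain them, and they hold GCATG 1 time, 775 nt from exon 11, 752 nt upstream of the cluster and 1887 nt from exon 12. Transcript-covered sequence of all protein-coding genes holds GCATG 0.974 times per kb, and binding at this copy was not tested. It is printed as the only GCATG in the part of intron 11 that could be read, with GCATG in capitals:
Scarb1 intron 11, chr5:125283107-125283136, minus strand: gtgcatatacttGCATGgagaacactcata

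Of the 8 genes 7 had at least 1 cluster. Among all 21951 protein-coding genes the share with a cluster was 41.8%, and among the 4437 whose span lies in the range of these 8 genes, 37.7 to 120 kb, it was 60.7%. Lrp5 had 16 clusters, Lrp6 15, Lrp1 14, Scarb2 9, Cd36 8, Scarb1 3 and Vldlr 2. Sort1 had none. By summed count the order was Lrp6 with 318, Lrp5 with 291, Cd36 with 276, Lrp1 with 254, Scarb2 with 136, Scarb1 with 62 and Vldlr with 23. Scarb1 thus carried 4.56% of the counts of the group, and ranked 4932nd of the 10738 genes with a cluster, whereas Lrp6 ranked 1329th. The level of each transcript in these cells was not analysed here, so a higher count from more binding and one from more RNA cannot be told apart.

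**Figure D2:**
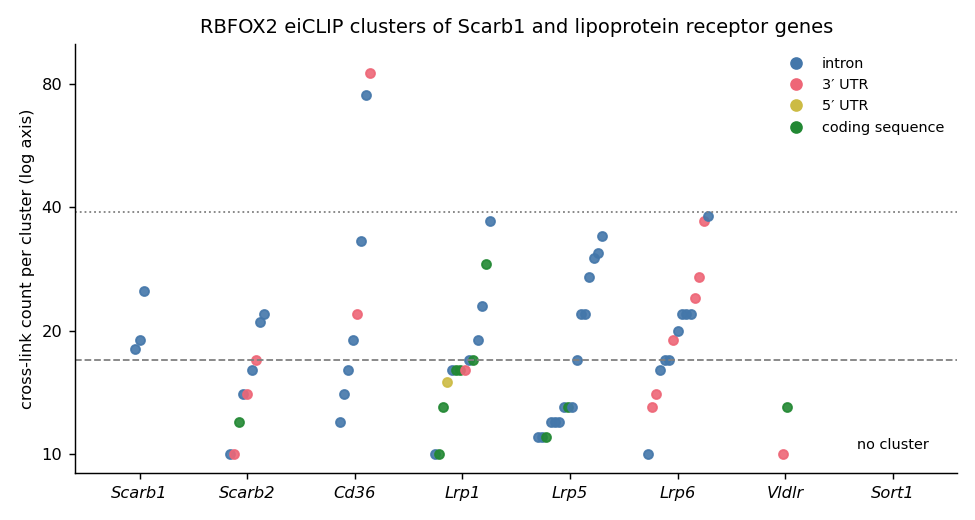
Cross-link count of every cluster of the 8 genes (log axis), coloured by where its midpoint falls, with the median count of all clusters in the list (dashed, 17) and the count at which the highest 10.2% begin (dotted, 39). The 3 Scarb1 clusters lie between 18 and 25, and only 2 clusters, both of Cd36, lie above the dotted line.

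Relative to gene length, Scarb1 had the lowest cluster density of the 7 genes with a cluster, but within wide intervals. By counts per 10 kb of span Scarb1, with 9.69, was above Vldlr, with 6.09. When all clusters, intronic ones included, were divided by exon length instead, it had 0.940 per kb, above Lrp1 with 0.852 and Vldlr with 0.239. No Scarb1 cluster was itself in an exon. Without clusters of 5 nt or less Scarb1 was 6th of 8 by span. By span it had 0.469 clusters per 10 kb of span (95% interval 0.0967 to 1.37), beside a median of 1.22 over the 9185 protein-coding genes with a cluster. Vldlr had 0.530 (0.0642 to 1.91) and Cd36 0.747 (0.323 to 1.47). Lrp6 had 1.25, Scarb2 1.37, Lrp5 1.57 and Lrp1 1.69, the highest (0.922 to 2.83). The intervals of neighbours in this order overlap, and that of Scarb1 overlaps those of the other 6 genes with a cluster. Over the other 7 genes together, Sort1 included, 64 clusters in 593 kb gave 1.08 per 10 kb. The ratio of Scarb1 to them was 0.434 with an exact interval from 0.0873 to 1.33, which includes equal density.

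**Figure D3:**
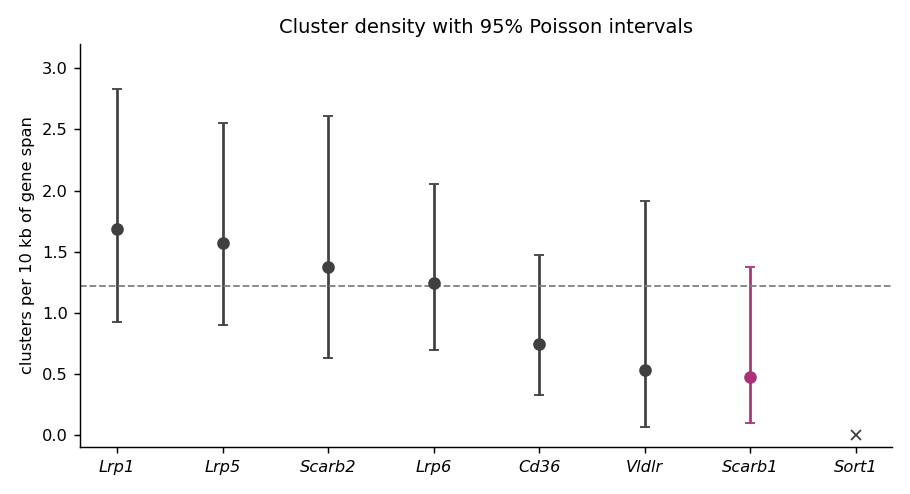
Clusters per 10 kb of gene span for each gene, with 95% Poisson intervals, in falling order (Scarb1 in purple; cross, Sort1 with no cluster; dashed line, the median of 1.22 over protein-coding genes with a cluster). Scarb1, at 0.469, is the lowest of the genes that have a cluster, and its interval overlaps all the others that are drawn.

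Of the 67 clusters 43 were intronic (64.2%, 95% interval 52.2 to 74.6), 13 were in 3′ UTRs, 10 in coding sequence and 1 in a 5′ UTR. Of all clusters in genes, 68.1% were intronic, which lies inside that interval. Scarb1 was the one gene of the group whose clusters were all in introns, with 3 of 3. Lrp5 had 14 intronic clusters of 16, Lrp6 9 of 15, Cd36 6 of 8, Scarb2 5 of 9, Lrp1 6 of 14 and Vldlr 0 of 2. Per 10 kb of sequence of each kind, the 7 receptor genes with a cluster had 0.820 clusters in introns (0.594 to 1.10), 6.06 in 3′ UTRs (3.23 to 10.4) and 3.24 in coding sequence (1.55 to 5.96). The protein-coding genes with a cluster had 0.735, 5.37 and 5.55 respectively, each inside the interval of the receptor genes. With Sort1 included, the 8 genes had 0.723 in introns (0.523 to 0.974), 5.05 in 3′ UTRs (2.69 to 8.64) and 2.99 in coding sequence (1.43 to 5.50). All annotated genes, with or without a cluster, had 0.435, 2.92 and 2.86, of which the intron value lay below the interval of the 8 genes and the other values inside it.

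**Figure D4:**
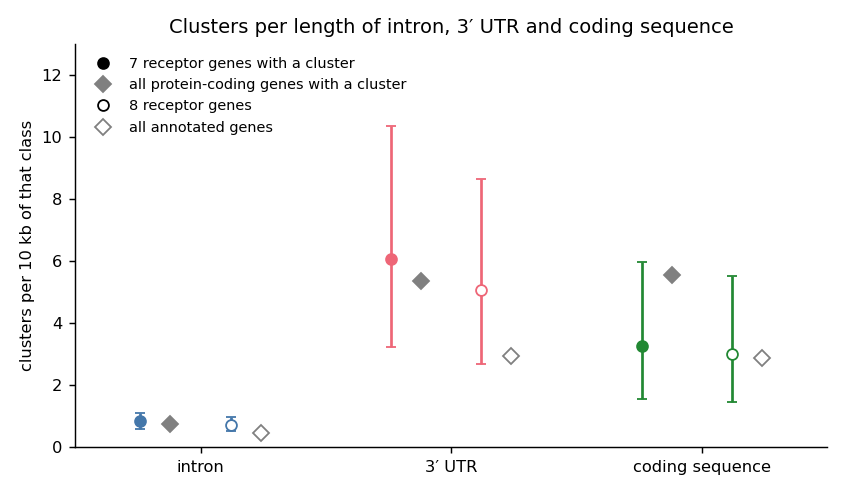
Clusters per 10 kb of intron, 3′ UTR and coding sequence in the 7 receptor genes with a cluster (filled circles) beside all protein-coding genes with a cluster (filled diamonds), and in all 8 receptor genes (open circles) beside all annotated genes (open diamonds), with 95% Poisson intervals for the receptor genes. Among genes with a cluster the pairs are 0.820 and 0.735 in introns, 6.06 and 5.37 in 3′ UTRs, and 3.24 and 5.55 in coding sequence, each diamond inside its interval.

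Within introns, most clusters lay more than 300 nt from an exon, as did most intronic clusters of all protein-coding genes. Of the 43 intronic clusters 7 (16.3%) lay within 300 nt of an exon of the gene's reference transcript, beside 19.8% of intronic clusters of all protein-coding genes. The median distance to the nearest such exon was 1563 nt, and 10 clusters were more than 5 kb away, both of the Scarb1 clusters in intron 1 included. First introns held 11 of the 67 clusters (16.4%, beside 18.5% over protein-coding genes) and last exons 14 (20.9%, beside 12.8%).

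**Figure D5:**
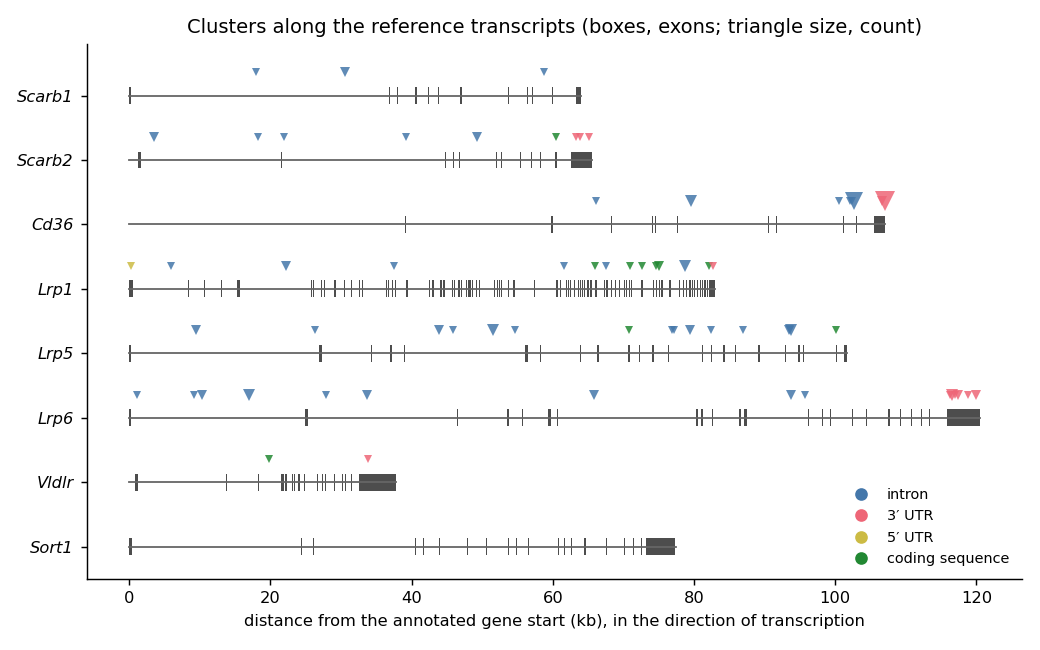
Clusters (triangles, larger for higher counts, coloured by class) along the reference transcript of each gene, in kb from the annotated gene start in the direction of transcription (exons as boxes, the shortest widened to be visible). Scarb1 has 2 clusters in its long first intron and 1 in intron 11, Lrp6 has 6 clusters in its last exon, Scarb2 3, Cd36 and Lrp1 2 each and Vldlr 1, and Sort1 has none.

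The annotation gives these genes 7 cassette exons, internal exons that at least 1 coding transcript skips: Scarb1 exon 12, Lrp6 exon 2, exons 4, 9 and 16 of Vldlr, exon 18 of Sort1 and a 51-nt exon of Lrp1 used by a partial transcript. None of the 7 had a cluster midpoint within 300 nt of intron upstream or downstream. Among 12241 cassette exons of protein-coding genes the shares were 4.39% upstream and 5.05% downstream, shares too low to be told from 0 in a set of 7. The closest intronic cluster to any of them was a Lrp1 cluster with a count of 16 (chr10:127583663-127583740), 923 nt upstream of the 51-nt exon but in another intron of the reference transcript. Next was the Scarb1 cluster of intron 11, at 1067 nt, and a Lrp6 cluster with a count of 17 followed at 2516 nt downstream of exon 2. Of the 66 exons of the 8 genes that were called constitutive, 2 had a cluster in the 300 nt on either side. Among exons called constitutive in all protein-coding genes the share was 5.07%. The call left out most exons of several genes. Lrp1 had 11 such exons beside 89 in its reference transcript, Lrp5 6 beside 23, Lrp6 2 beside 23 and Scarb2 0 beside 12. Coverage was fuller for Sort1 (18 beside 21), Cd36 (11 beside 15), Vldlr (11 beside 19) and Scarb1 (7 beside 13). Clusters next to exons left out were not counted here.

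Vldlr was the gene with a cluster on an alternative exon. Its exon 4 (chr19:27236240-27236362, plus strand, 123 nt) lies among the exons for the ligand-binding repeats and is skipped in one coding transcript. The cluster (chr19:27236208-27236357) began 32 nt upstream, ran across the 3′ splice site and covered 118 nt of the exon, with a count of 13, higher than 24.3% of all clusters. It is the 1 of 7 cassette exons with a cluster midpoint inside it, beside 4.20% of all cassette exons. The exon is printed with the bases inside the cluster in capitals, to show how much of it the cross-links span, and it holds GCATG 0 times:
Vldlr exon 4: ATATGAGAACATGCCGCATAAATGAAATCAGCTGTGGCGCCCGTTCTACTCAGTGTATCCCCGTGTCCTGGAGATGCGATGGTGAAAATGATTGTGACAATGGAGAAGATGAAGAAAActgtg
Exon 16 of Vldlr (84 nt), which encodes the O-glycosylated stretch of the receptor, had no cluster nearer than 3570 nt. That nearest cluster was the other one of the gene, in its 3′ UTR (chr19:27250246-27250293), with a count of 10, the lowest count in the list.

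Cd36 (chr5:17781690-17888801, minus strand) held the 2 highest counts of the group. The first, with a count of 85, was a 15-nt cluster in the 3′ UTR (chr5:17781763-17781777), 73 nt from the annotated end of the gene, and exceeded 97.5% of all clusters. The second, with a count of 75, was in intron 13 (chr5:17786100-17786219), 214 nt before the next exon, and exceeded 96.9%. These 2 clusters, both near the 3′ end, made up most of the summed count of 276, and the 85 alone was 30.8% of it. Intron 13, of 1799 nt, held 2 further clusters with counts of 19 and 16, and the last exon held 1 with a count of 22 (chr5:17782159-17782162). A cluster in intron 8 had a count of 33 (chr5:17809228-17809234). Cd36 is also made by endothelial cells and macrophages, whose share of these counts was not tested. Of 5 endothelial marker genes 1 had a cluster, Stab2 with a count of 12, while Pecam1, Kdr, Clec4g and Lyve1 had none, and of 5 macrophage markers 3 had 1 cluster each, with summed counts of 0 to 24 over the list.

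Scarb2 (chr5:92441314-92506833, minus strand) had 9 clusters with counts from 10 to 22, with no cluster standing far above the others. The highest was in intron 1 (chr5:92503246-92503390, count 22), followed by 1 in intron 5 (chr5:92457613-92457617, count 21). Its 4 exonic clusters were all in the last 2 exons. The one in coding exon 11 (chr5:92446321-92446355) had a count of 12, and those in the 3′ UTR had counts of 10 (chr5:92443546-92443552), 14 (chr5:92442954-92442977) and 17 (chr5:92441709-92441796). No cassette exon was found for Scarb2, Cd36 or Lrp5 from their coding transcripts. For Scarb2 no exon was called constitutive either, so the rule classed none of its exons.

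Lrp1 (chr10:127538161-127621148, minus strand, 89 exons) differed from Scarb1 in where its clusters lay, with 8 of 14 in exons. Its counts ran from 10 to 37, and 10 of the 14 clusters lay between 74.2% and 99.7% of the way along the gene, where its exons are densest. The highest, 37, was in intron 78 (chr10:127542460-127542525), a short intron of 265 nt, 42 nt after exon 78 and 159 nt before exon 79. The next were 29 in coding exon 73 (chr10:127546068-127546152) and 23 in intron 6 (chr10:127598881-127599073). The 66 bases of the intron 78 cluster are known through a transcript that retains them, and are printed as the one high intronic cluster of the group whose bases could be read:
Lrp1 intron 78: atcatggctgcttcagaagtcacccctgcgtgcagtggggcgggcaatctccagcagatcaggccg
This stretch holds GCATG 0 times, as does the window of 50 nt on each side.

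Lrp5 (chr19:3584828-3686564, minus strand) and Lrp6 (chr6:134446476-134566965, minus strand), which share their domain order and act together in Wnt signalling, had nearly equal numbers of clusters in different places. The highest Lrp5 count, 34, was in intron 19 (chr19:3592752-3592792), beside clusters of 22 and 12 in the same intron. It was followed by 31 in intron 5 (chr19:3634963-3635076) and 30 in intron 13 (chr19:3607057-3607079). Intron 5, of 17057 nt, held 4 clusters in all. No cluster was listed in the 3′ UTR of Lrp5, and its 2 exonic clusters were in coding exons 10 (chr19:3615709-3615845, count 13) and 22 (chr19:3586373-3586475, count 11).

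Lrp6 had 6 of its 15 clusters in the 3′ UTR (of 13 in the whole group), with counts of 13 to 37. The highest of these, 37 (chr6:134450431-134450493), began 293 nt after the stop codon, and the one of 27 (chr6:134447049-134447069) lay 573 nt before the annotated end. The highest Lrp6 count, 38, was in intron 1 (chr6:134549925-134550116), where 3 other clusters had counts of 16 to 22. The 7880 nt between that cluster and exon 2, which another coding transcript skips, held none.

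Sort1 (chr3:108284082-108361511, plus strand, 77.4 kb) had no cluster on its strand, and the nearest one lay 12.7 kb outside its span. The list starts at a count of 10, so fewer cross-links than that would not appear in it. The 12887 nt of Sort1 that annotated transcripts cover, 16.64% of its span, hold GCATG 20 times, 1.55 per kb. Over such sequence of all protein-coding genes it occurred 0.974 times per kb. In the other receptor genes the value ran from 0.6265 per kb in Scarb2 to 1.393 in Cd36, with 1.24, 14 times, for Scarb1. Whether the motif bears on the absence of clusters was not tested.

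Windows of each cluster with 50 nt on each side could be read in full from transcript sequence for 16 of the 67 clusters, 14 exonic and 2 intronic, and none of Scarb1. On the transcribed strand 3 of the 16 held GCATG (18.8%, Wilson interval 6.59 to 43.0), beside 20.2% of 19151 clusters in genes that could be read. Of the 16 windows 13 were in 3′ UTRs, where 3 held it (23.1%, 8.18 to 50.3), beside 21.7% of all 3′ UTR clusters that could be read. The longer TGCATG, which contains it, was in 1 of the 16 (6.25%, beside 10.4% of the clusters in genes). With 100 nt on each side 2 of 14 windows held GCATG (14.3%, 4.01 to 39.9), beside 29.9% of the clusters in genes. Fewer windows could be read at that width. The Cd36 cluster with a count of 85, which held GCATG, lies 73 nt from the gene's end and was no longer among them. All 3 windows that held GCATG with 50 nt were in 3′ UTRs. The Cd36 window held 2 copies, and the Lrp6 and Vldlr windows 1 each. Printed for each are the 30 bases around the copy nearest to the 5′ edge of the cluster, with GCATG in capitals:
Cd36, count 85, chr5:17781768-17781797, minus strand: acactcaggtatGCATGcacacatggaatt
Lrp6, count 37, chr6:134450496-134450525, minus strand: taaatacacagaGCATGccttaagcccagt
Vldlr, count 10, chr19:27250233-27250262, plus strand: gtgccttctatgGCATGggaaagggcttta
The printed Cd36 copy, of the 3 the one preceded by T, started 8 nt before the 5′ edge of the group's highest cluster. The other Cd36 copy started 39 nt before that edge. The copies in Lrp6 and Vldlr started 20 nt and 1 nt before the 5′ edges of their clusters.

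Receptors, adaptors and trafficking factors around these genes were taken from a list of 61, of which 60 matched 1 gene in the annotation. Of these, 37 had a cluster (61.7%, beside 41.8% of all protein-coding genes). The list was not matched by span, and among protein-coding genes of 37.7 to 120 kb the share was 60.7%. By role they were 9 of 16 other receptors of the lipoprotein and sorting families, 4 of 10 other scavenger receptors, 3 of 7 chaperones and coreceptors, 7 of 11 adaptors and 14 of 16 genes of trafficking and turnover. The median of the 60 genes, those without a cluster included, was 1 cluster, beside 3 for Scarb1. Over all genes with a cluster the median was also 3. The 37 listed genes with a cluster had a median summed count of 97, above the 62 of Scarb1. The highest summed counts were in Pid1, an adaptor with a phosphotyrosine-binding domain that binds LRP1, with 43 clusters and 775 counts, Sdc4, the heparan sulfate proteoglycan syndecan-4, with 35 and 675, and Numb, an endocytic adaptor, with 28 and 668. Pdzk1, the adaptor of the SR-BI tail, was looked up after its values had been seen and had 1 cluster with a count of 13, or 3.12 counts per 10 kb beside 9.69 for Scarb1.

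The genes most like Scarb1 in counts per 10 kb of span, by the absolute log2 difference from its 9.69 over the 60 genes, were Commd1 with 9.97, Ccdc22 with 8.54 and Scarf1 with 8.43. Commd1 and Ccdc22 encode subunits of a complex that recycles receptors from endosomes, and Scarf1 is a scavenger receptor of another class. They reached these values with 5 clusters and 86 counts, 1 cluster and 10 counts, and 1 cluster and 11 counts respectively, so the likeness rests on very few clusters.

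The labelled cell type was checked through marker genes. Of 8 hepatocyte markers 6 had a cluster, with Alb at 8110 counts and Apob at 2337, while Serpina1a and Asgr1 had none. Of 4 stellate cell markers 1 had clusters (Reln, 150 counts), and of 4 cholangiocyte markers none. Of the receptor clusters 13 (19.4%) were 5 nt wide or less, beside 26.7% of all clusters, and none of these was in Scarb1, Lrp1 or Vldlr. At clusters of the whole list, 3 heptamers that start with A were in greatest excess 6 to 17 nt downstream of the 5′ edge, compared with sequence 40 to 90 nt downstream. Of 19 receptor clusters that could be searched 1 held such a heptamer there (ACGTGAT, in the Lrp5 cluster of coding exon 10), beside 2.01% of clusters in genes, and its part in that count was not tested.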

How the data were processed

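RBFOX2 eiCLIP libraries (3, from primary mouse hepatocytes) were processed by the authors. Adaptors were trimmed with cutadapt, and reads of at least 18 nt were aligned to GRCm38 with STAR (2.4.2a) keeping unique matches. Random barcodes in the first 7 nt served to remove PCR duplicates. The cDNA starts of the 3 libraries were pooled and clustered in iMaps. The study's methods name its False Discovery Rate clustering tool, run at default settings, and the Paraclu algorithm. The submitters' processing notes also name CASAVA (1.8.4). The deposited values are whole-number counts per cluster, from 10 to 186971 with a median of 17, which were read as cDNA starts because no header names them. They are pooled, not normalised and without a background library, and the depth of each library is not given in the sources used here.

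From these counts, clusters were assigned to genes by midpoint and strand, and to 1 class each (coding sequence before UTRs, UTRs before other exons, and introns last), exons of retained-intron transcripts counting as introns. Distances are differences between the nearest coordinates. Sequence was read from GENCODE M21 transcripts placed by their exons. Python (3.11.15), numpy (2.4.6), scipy (1.17.1) and matplotlib (3.10.9) were used. The classes, the cassette and constitutive calls, the reading of sequence and the Poisson intervals were tested on simulated data, and the other steps were not. With 1 group and pooled libraries no test between groups was made. Named were all Scarb1 clusters, the 3 highest of each other gene, exonic clusters where a gene had 5 or fewer, those within 300 nt of a cassette exon, and the 3 listed genes highest in summed count or nearest to Scarb1. The receptor genes and the lists were chosen with earlier results of these data known. The symbol Hgs, held by 2 overlapping genes, was left out of the list.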

Additional observations from a re-analysis of the deposited data

Results flagged for a closer look

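Within the spans of the 8 genes 1 cluster lay on the opposite strand, which none of the comparisons used. It was in Cd36 (chr5:17821696, plus strand), 1 nt wide, with a count of 15, and stood out only because it lies outside the transcribed strand. It is no part of the 8 clusters given for Cd36, and no source of it was tested.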

How the results depend on the processing

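The total of 67 clusters was 67 with any overlap of the gene span and without clusters in a second gene on the strand, and 65 after merging clusters within 200 nt. It fell to 35 with a count at or above the median of all clusters and to 2 in the top 10%, where the summed count was 160, all of it from Cd36. Scarb1 ranked 7th of 8 by clusters per 10 kb, 5th per 10 kb of exon, 6th without clusters of 5 nt or less (added after seeing the data), 4th with counts at or above the median (all 3 of its clusters pass) and 2nd, tied with the other genes at 0, in the top 10%. Per 10 kb of exon instead of span the 8 genes had 10.75 clusters instead of 1.02. Intronic clusters were counted in this value and in the rank per 10 kb of exon. The distance from the intron 11 cluster to exon 12 was 1101 nt from its midpoint and 1135 nt from its 5′ edge. No cassette exon gained an adjacent cluster with windows of 500 or 1000 nt, the basic transcripts or, added after seeing the data, transcripts subject to nonsense-mediated decay. The intronic share stayed between 61.2% and 65.2%. The share of windows with a motif was 6.25% for TGCATG and 18.8% for CATGC (10.4% and 13.2% over clusters in genes), and for GCATG 16.7% with 20 nt and 14.3% with 100 nt on each side (12.4% and 29.9%). The windows that could be read differed with the width. Without clusters of 5 nt or less, also added later, 54 clusters remained in the total, 4 of the 8 of Cd36 among them. The densities by class without Sort1 were also added after seeing the data. No cause of these differences was tested.

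No paired analysis was possible because the 3 libraries form 1 group and were pooled before clusters were called. Leaving out a replicate was not run for the same reason. The list starts at a count of 10, so weaker sites of Sort1 or Scarb1 are not in it, and the spread between cultures is not known.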
